A study of Mus musculus with 12 samples.

Results

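Ecel1, Sprr1a, Lad1, Tnnt2, Sox11, Gap43, Gadd45a and Gal are 8 mouse genes that had been put together as nerve injury and regeneration genes with the strongest rises in the retinas of immunized mice. They were chosen by their measured values in these libraries, so their levels relative to the SHAM control mice are given as a description, with no test. All 8 were found among the 54532 gene identifiers of the count table, and 8 of 8 passed the filter on low counts that left 18299 genes for testing. Sprr1a passed it with 72 counts in total and Gal with 88. The rise for which they had been put together was not seen in the values of all 8. Ecel1, Sprr1a, Lad1 and Tnnt2 were higher in every immunized library than in every SHAM library, as were 1.31% of tested genes. Sox11, Gap43, Gadd45a and Gal were not. The genes were chosen on this contrast, so nothing is read from the count, and their part in axon injury was not tested. The first 4 are called the Ecel1 to Tnnt2 genes here, and the other 4 are described beside them.

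Polyadenylated RNA of whole mouse retina was sequenced in 12 libraries, which fall into 4 groups of 3. The question was how needling at the acupoint GB20 changes retinal transcription in a mouse model of optic neuritis. SHAM mice were the sham controls, and MOG mice had been immunized with the myelin peptide MOG35-55 in complete Freund's adjuvant, followed by pertussis toxin. GB20 and GV16 mice were immunized in the same way and then needled repeatedly on both sides under xylazine and ketamine, at GB20 or at the comparison site GV16, until they were killed.

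All mice were wild-type C57BL/6, 13 weeks old at collection, and female according to the methods. Immunization induces experimental autoimmune encephalomyelitis, in which the optic nerve is inflamed, so the retina holds the cell bodies of the affected axons and not the lesion itself. The sources do not say whether SHAM mice received adjuvant or toxin, or whether MOG mice were anaesthetized, so needling cannot be told apart from anaesthesia in the needled groups. The methods put 2 or 3 mice in each group and repeat the experiment 3 times, so a library may hold retinas of several mice. The methods call a repeat a replicate and give the amount of RNA per group. Neither pooling nor whether the replicate numbers of the libraries mark the repeats is stated outright. The p-values below measure the spread between libraries only. Total counts per library ran from 15860278 in GV16 replicate 2 to 19194280 in GB20 replicate 1.

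When the axon of a neuron is damaged, kinase signals travel back to the cell body and turn on transcription factors that raise a set of injury genes, some of which take part in axon regrowth and others in cell death. Retinal ganglion cells, whose axons form the optic nerve, respond in this way to crush of the nerve, although most of them do not regrow. Ecel1 encodes an endopeptidase of the M13 family that was found through its induction in damaged neurons, and Sprr1a encodes a small proline-rich protein of the cornified envelope that axotomized neurons also make.

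Libraries with RNA from neighbouring tissue were looked for before the members were compared. The summed level of 7 lens genes was 15.6 CPM (counts over the library size scaled by TMM) in SHAM replicate 2 and 8.94 CPM in GB20 replicate 2, against 0.681 to 2.31 CPM in the other 10 libraries. The most abundant lens gene, Cryaa, averaged 1.04 CPM. A list of 9 myelin and Schwann cell genes summed to 76.6 CPM in MOG replicate 2 and to 40.4 to 49.9 CPM elsewhere, with Mbp the most abundant at a mean of 34.0 CPM. These 3 libraries were kept, and the main values are given again without them (a choice made after seeing the data).

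All 14 retinal ganglion cell markers had counts, so markers of the labelled tissue were present.

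Ecel1 (ENSMUSG00000026247) lies on the minus strand at chr1:87147655-87156521 of GRCm38 and has 5 annotated transcripts. Its level was 0.727, 0.941 and 0.777 CPM in the 3 SHAM libraries and 6.66, 4.92 and 8.83 CPM in the 3 MOG libraries. It was 4.33, 6.14 and 5.42 CPM in GB20 and 5.53, 5.85 and 6.44 CPM in GV16. All 9 immunized libraries thus lay above all 3 SHAM libraries, while the 3 immunized groups overlapped one another. MOG replicate 3 was the highest library and MOG replicate 2, the library with raised myelin genes, the lowest of its group. Group means were 0.815 ± 0.112 CPM in SHAM, 6.80 ± 1.96 in MOG, 5.30 ± 0.913 in GB20 and 5.94 ± 0.464 in GV16 (SD, n = 3 each). Relative to SHAM, edgeR's fit gave log2 fold changes of 3.05 (SE 0.249) in MOG, 2.68 (SE 0.255) in GB20 and 2.85 (SE 0.253) in GV16. In SHAM the reads behind these values numbered 12 to 16 per library, so the size of the fold rests on few counts.

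Sprr1a (ENSMUSG00000050359) lies on the minus strand at chr3:92483952-92485895, with 1 annotated transcript. No SHAM library held a read of it, while MOG libraries held 7, 6 and 16 reads, GB20 libraries 12, 5 and 4, and GV16 libraries 9, 1 and 12. In MOG these reads made levels of 0.392, 0.369 and 0.961 CPM. GB20 libraries were at 0.618, 0.304 and 0.244 CPM, and GV16 libraries at 0.559, 0.0643 and 0.743 CPM. Every immunized library held at least 1 read, but GV16 replicate 2 held no more than that, and the 3 immunized groups overlapped. A count of 0 over the SHAM group allows up to 3 counts, or 0.0582 CPM, for counting error only. The observed rate over each group was 9.81-fold that floor in MOG, 6.90-fold in GB20 and 7.91-fold in GV16. These ratios leave out the error of the immunized groups and the spread between libraries, so they are not lower bounds. GV16 replicate 2, at 0.0643 CPM, was close to the floor.

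Of the 14 other genes of the small proline-rich protein family, 2 had a count in any library and 0 passed the filter, so edgeR tested 0 of them, and DESeq2 and limma called 0. Sprr genes are epithelial, and a list of 15 surface epithelium genes was therefore summed in each library. Krt18, which the retina also expresses, made up most of it with a mean of 42.7 CPM. Without Krt18 the other 14 genes summed to 3.77 to 6.29 CPM in SHAM, 2.76 to 3.81 CPM in MOG, 3.41 to 4.28 CPM in GB20 and 3.28 to 4.22 CPM in GV16. The highest sum, 6.29 CPM, was that of SHAM replicate 2, the library with raised lens genes. The other SHAM libraries were at 4.12 and 3.77 CPM, and GB20 replicate 1 (4.28 CPM) and GV16 replicate 1 (4.22 CPM) were above these 2. Dsg3 and Ivl were at 0 in all 12 libraries.

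Lad1 (ENSMUSG00000041782) encodes ladinin, a filament protein of epithelial basement membranes, and lies on the plus strand at chr1:135818598-135833342 with 3 annotated transcripts. It was at 1.39, 2.47 and 2.27 CPM in SHAM and at 7.72, 8.85 and 9.25 CPM in MOG. In GB20 it was at 6.95, 6.08 and 5.30 CPM, and in GV16 at 6.40, 4.05 and 5.51 CPM. The needled libraries sat between the other groups, with 6 of 6 above every SHAM library and 6 of 6 below every MOG library. Means were 2.05 ± 0.574 CPM in SHAM, 8.61 ± 0.790 in MOG, 6.11 ± 0.828 in GB20 and 5.32 ± 1.18 in GV16 (SD, n = 3). The log2 fold changes from SHAM were 2.06 (SE 0.205), 1.57 (SE 0.210) and 1.37 (SE 0.215) in MOG, GB20 and GV16.

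Tnnt2 (ENSMUSG00000026414) encodes cardiac troponin T, the subunit that ties the troponin complex to tropomyosin, and is annotated with 15 transcripts at chr1:135836354-135852260 on the plus strand. SHAM libraries had 2.06, 2.71 and 2.05 CPM of it and MOG libraries 7.28, 9.95 and 12.3 CPM. GB20 libraries had 6.90, 7.48 and 6.21 CPM, and GV16 libraries had 6.46, 5.14 and 6.25 CPM. Again all 9 immunized libraries were above SHAM, and 5 of 6 needled libraries were below every MOG library, the exception being GB20 replicate 2, which exceeded MOG replicate 1. Mean levels were 2.27 ± 0.375 CPM in SHAM, 9.85 ± 2.52 in MOG, 6.86 ± 0.634 in GB20 and 5.95 ± 0.707 in GV16 (SD, n = 3). From SHAM, Tnnt2 differed by log2 fold changes of 2.11 (SE 0.196) in MOG, 1.59 (SE 0.202) in GB20 and 1.39 (SE 0.206) in GV16.

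Because Tnnt2 is a heart muscle gene, 15 muscle genes were summed in the same way. The sum was 17.7 to 21.1 CPM in SHAM, 18.5 to 20.5 CPM in MOG, 17.2 to 18.5 CPM in GB20 and 16.1 to 18.5 CPM in GV16, with Ttn the most abundant at a mean of 5.86 CPM. Of the muscle list, 8 genes could be tested and edgeR called 0 in MOG vs. SHAM, with 0 at an unadjusted p under 0.05 and 0 by DESeq2 or by limma. Among the other 7 troponin genes 3 could be tested, with 0 called by edgeR, 0 at an unadjusted p under 0.05 and 0 by DESeq2 or limma in the same comparison. Tnnt1 had a log2 fold change of −0.27 and Tnnc1 of 0.04. The troponin T gene of slow muscle, Tnnt1, was thus not higher where Tnnt2 was.

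A count of the libraries sums up the separation. For 4 of the 8 genes, Ecel1, Sprr1a, Lad1 and Tnnt2, all 9 immunized libraries lay above all SHAM libraries, as did 1.31% of the 18299 tested genes, and since the genes were chosen on this contrast nothing is read from that count. The 3 MOG libraries alone were above all SHAM libraries for the same 4 of 8, against 7.87% of tested genes. All 6 needled libraries lay below all MOG libraries for 1 of the 8, Lad1, against 2.57% of tested genes. Ecel1 had 1 of 6 needled libraries below every MOG library and Sprr1a had 3 of 6.

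**Figure D1:**
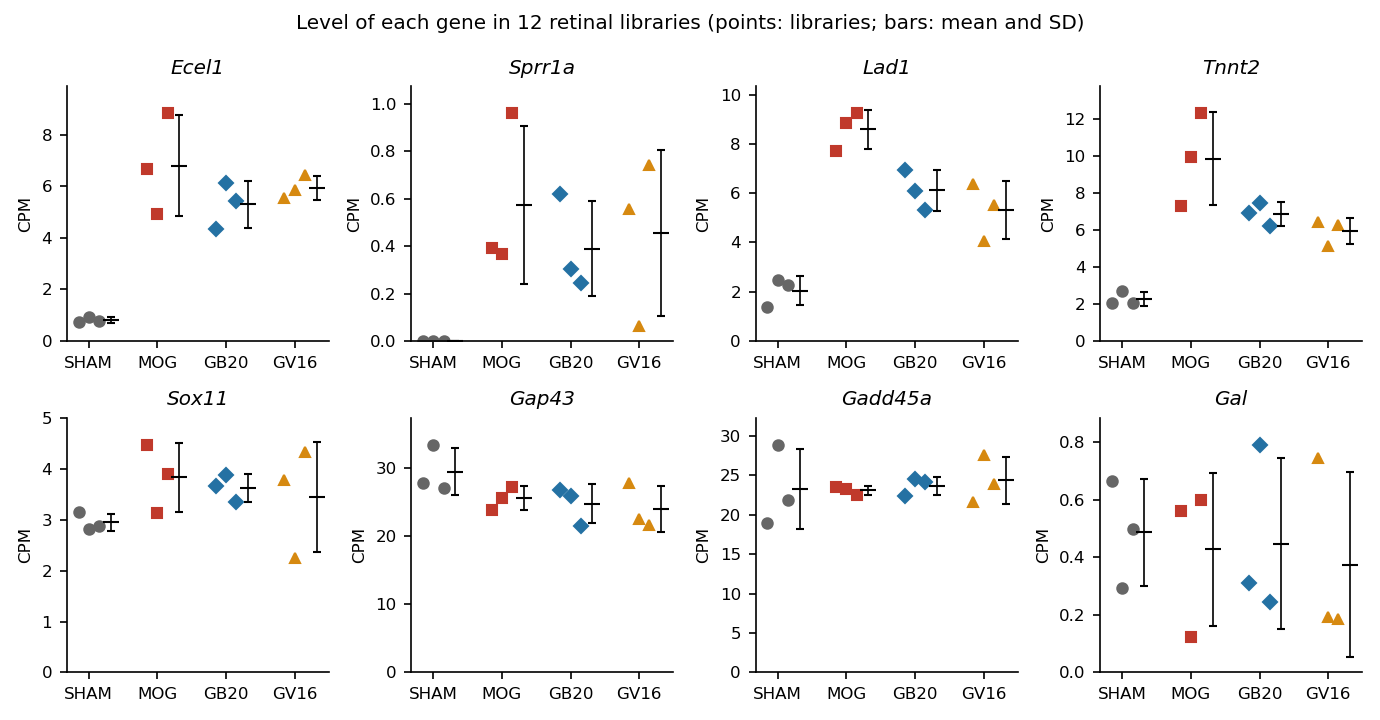
Level of each of the 8 genes in CPM (y axis, linear, from 0) in the 12 libraries by group; points are libraries and bars are the mean and SD of 3. Ecel1, Sprr1a, Lad1 and Tnnt2 stand apart from SHAM in all 9 immunized libraries, and Sox11, Gap43, Gadd45a and Gal do not.

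Without SHAM replicate 2, MOG replicate 2 and GB20 replicate 2 together, the MOG log2 fold changes from SHAM were 3.36 for Ecel1, 2.20 for Lad1 and 2.25 for Tnnt2. All 3 were thus at least as large without the libraries that had raised lens or myelin genes. With all 12 libraries and on the scale of log2(FPKM + 1), which draws low values together, the MOG changes of the same genes were 1.23, 1.14 and 0.80. FPKM is the count divided by the length of the gene and the depth of the library.

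Sox11 (ENSMUSG00000063632, chr12:27334264-27342574, minus strand) encodes a transcription factor of developing neurons that is used again in regeneration. Its level was 3.15, 2.82 and 2.89 CPM in SHAM, 4.48, 3.13 and 3.90 CPM in MOG, 3.66, 3.89 and 3.35 CPM in GB20 and 3.79, 2.25 and 4.33 CPM in GV16. Of the 9 immunized libraries 7 were above all SHAM libraries, MOG replicate 2 lay within the SHAM range and GV16 replicate 2 was the lowest of the 12. The log2 fold changes from SHAM were 0.38, 0.30 and 0.23 in MOG, GB20 and GV16. Leaving out 1 library, they ran from 0.25 to 0.51 in MOG, from 0.25 to 0.35 in GB20 and from 0.04 to 0.46 in GV16.

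Gap43 (ENSMUSG00000047261, chr16:42248442-42340651, minus strand) encodes the growth cone phosphoprotein that is a usual mark of growing axons. It ran from 21.5 to 33.5 CPM over all libraries, with group means of 29.5 ± 3.47 CPM in SHAM, 25.6 ± 1.71 in MOG, 24.8 ± 2.86 in GB20 and 24.0 ± 3.39 in GV16 (SD, n = 3). The immunized means were below that of SHAM, with log2 fold changes of −0.20, −0.25 and −0.30, and the groups overlapped. Without SHAM replicate 2 these were −0.09, −0.15 and −0.19. No immunized library exceeded the highest SHAM library.

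Gadd45a (ENSMUSG00000036390, chr6:67035096-67037457, minus strand) encodes a stress sensor induced by DNA damage, and 19.1% of its exon bases are shared with E230016M11Rik on the other strand. Since the strand setting of the counting is not given, its counts may hold reads of that gene. Group means were 23.3 ± 5.07 CPM in SHAM, 23.1 ± 0.554 in MOG, 23.7 ± 1.14 in GB20 and 24.4 ± 3.01 in GV16 (SD, n = 3), and the highest library of the 12 was SHAM replicate 2 at 28.9 CPM. The differences from SHAM were −0.01, 0.02 and 0.07 in log2 units. They depended on single libraries: without SHAM replicate 2, which had raised lens genes, they were 0.18, 0.21 and 0.25, and without SHAM replicate 1 they were −0.14, −0.10 and −0.06. No direction is read from them.

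Gal (ENSMUSG00000024907, chr19:3409915-3414544, minus strand) encodes the neuropeptide galanin, which sensory and motor neurons make after axotomy. It had 2 to 13 counts in a library, or 0.123 to 0.790 CPM, with the lowest value in MOG replicate 2 and the highest in GB20 replicate 2. Its log2 fold changes from SHAM were −0.17, −0.13 and −0.36, and with so few counts a difference of that size was not detectable at this depth. Leaving out 1 library, they ran from −0.46 to 0.26 in MOG, from −0.79 to 0.15 in GB20 and from −1.33 to −0.04 in GV16. The sign turned in MOG when SHAM replicate 1 or MOG replicate 2 was left out, and in GB20 when SHAM replicate 1 or GB20 replicate 1 or 3 was left out. Without the lens and myelin libraries GB20 was at −1.04, and no direction is read from any of these. Of 3 galanin receptor genes 1 could be tested, Galr2, with a log2 fold change of 0.02 in MOG vs. SHAM; edgeR called 0, with 0 at an unadjusted p under 0.05 and 0 by DESeq2 or limma.

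**Figure D2:**
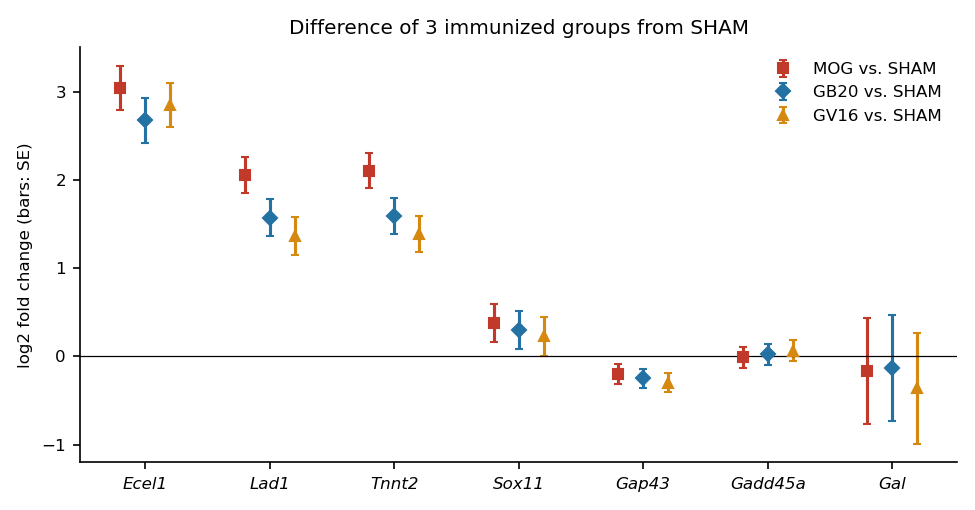
Log2 fold change from SHAM (y axis) of 7 genes in MOG, GB20 and GV16, with bars for the SE of edgeR's fit; Sprr1a is left out because its SHAM counts were 0. Ecel1 lies between 2.68 and 3.05, Lad1 and Tnnt2 between 1.37 and 2.11, and the other 4 genes between −0.36 and 0.38.

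Levels of different genes were compared per length, as FPKM. In SHAM the means ran from Gap43 at 19.2 FPKM and Gadd45a at 13.1 FPKM down to Gal at 0.677, Lad1 at 0.596, Sox11 at 0.352, Tnnt2 at 0.290, Ecel1 at 0.231 and Sprr1a at 0 FPKM. Gap43, Gadd45a and Gal did not overlap in their SHAM libraries, and neither did Lad1 and Sox11, while the neighbours Gal and Lad1, Sox11 and Tnnt2, and Tnnt2 and Ecel1 did. In MOG the order of FPKM means was Gap43 16.7, Gadd45a 13.0, Lad1 2.51, Ecel1 1.93, Tnnt2 1.26, Sprr1a 0.706, Gal 0.597 and Sox11 0.458. From Lad1 on, each gene overlapped in FPKM with the next in this order. In GV16 the FPKM means of the 4 were 1.69 for Ecel1, 1.55 for Lad1, 0.763 for Tnnt2 and 0.562 for Sprr1a. In GB20 Lad1 led them with 1.78 FPKM, before Ecel1, Tnnt2 with 0.879 FPKM and Sprr1a with 0.478 FPKM. Even in MOG, the 4 genes that were higher than in SHAM stayed below 3 FPKM on average, and the classical growth cone gene Gap43 was the most abundant of the 8 in both groups.

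Lad1 and Tnnt2 are neighbours, with 3011 bases between the end of Lad1 and the start of Tnnt2 on the same strand of chromosome 1. This was noticed after their values had been seen. Within 100000 bases on each side, 3 other genes could be tested in MOG vs. SHAM with edgeR. Csrp1 had a log2 fold change of −0.20 (adjusted p 0.399, edgeR), Pkp1 of −0.05 (adjusted p 0.904, edgeR) and Phlda3 of 0.01 (adjusted p 0.986, edgeR). Tnni1, the troponin I gene of slow muscle just before Lad1, averaged 0.407 CPM and was too low to test. The difference from SHAM was seen at 2 adjacent genes and not at the tested genes around them. Lad1 and Tnnt2 were chosen on this difference and the genes around them were not, so nothing about the region is read from it.

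Promoter windows were searched because Lad1 and Tnnt2 moved together and Sprr1a went from no reads to some. RefSeq's windows, from 250 bases before to 50 bases after the annotated start, matched 7 of the 8 genes, with 8 windows in all, and Gap43 was without one. The motifs were TGANTCA, the element bound by AP-1, TGACGTCA, the cyclic AMP response element, TTCNNNGAA, the element bound by STAT factors, and TATAAA, on both strands. TGANTCA occurred in 7.81% of all 32851 windows, TGACGTCA in 1.79%, TTCNNNGAA in 8.3% and TATAAA in 13.6%. Of the members' windows that of Sprr1a held TGANTCA, at 2 places that read TGAGTCA, 146 and 116 bases before the start, and TATAAA once, 43 bases before the start. In the other windows none of the 4 motifs was found, which says only that these letters are not in those windows. The bases before the annotated exons of 4 genes are shown 5′ to 3′ on the gene's strand (RefSeq, GRCm38.p6), with TGAGTCA in capitals: Sprr1a because of its matches, Lad1 and Tnnt2 as adjacent genes, and Ecel1 as the gene with the largest fold from SHAM among the members with counts in SHAM. They are Sprr1a at chr3:92485896-92486131 (minus strand), Lad1 at chr1:135818348-135818597 (plus), Tnnt2 at chr1:135836084-135836333 (plus) and Ecel1 at chr1:87156522-87156606 (minus), the last with 85 bases because an annotated exon begins within its window.
Sprr1a: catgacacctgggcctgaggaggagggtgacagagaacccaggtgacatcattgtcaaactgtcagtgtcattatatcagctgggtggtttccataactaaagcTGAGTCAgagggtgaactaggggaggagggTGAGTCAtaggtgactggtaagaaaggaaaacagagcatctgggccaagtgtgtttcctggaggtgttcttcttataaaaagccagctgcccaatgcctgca
Lad1: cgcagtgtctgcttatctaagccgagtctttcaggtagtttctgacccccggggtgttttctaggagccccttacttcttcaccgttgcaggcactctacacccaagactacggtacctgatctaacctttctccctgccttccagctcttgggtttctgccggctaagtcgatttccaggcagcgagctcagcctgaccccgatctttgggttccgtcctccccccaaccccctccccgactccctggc
Tnnt2: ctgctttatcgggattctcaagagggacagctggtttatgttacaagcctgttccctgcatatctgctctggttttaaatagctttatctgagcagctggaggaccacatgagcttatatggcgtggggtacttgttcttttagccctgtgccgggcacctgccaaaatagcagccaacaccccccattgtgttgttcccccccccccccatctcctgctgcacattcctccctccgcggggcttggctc
Ecel1: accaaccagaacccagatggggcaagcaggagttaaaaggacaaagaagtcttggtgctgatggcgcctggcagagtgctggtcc

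The needled groups were then compared with MOG, the comparisons that ask what needling changed. The members were chosen for high values in immunized retinas, and the MOG libraries that entered that choice enter these comparisons too, so a lower needled level is not independent of the choice. In mean CPM, GB20 kept 74.9% of the difference between MOG and SHAM for Ecel1, 67.7% for Sprr1a, 62.0% for Lad1 and 60.6% for Tnnt2. GV16 kept 85.6%, 79.4%, 49.9% and 48.6% of it for the same genes. These shares are descriptions and put Lad1 and Tnnt2 below Ecel1 in both needled groups, whichever single library was left out. Those of Sprr1a rested on few libraries: without MOG replicate 3 they were 102% in GB20 and 120% in GV16, and without GV16 replicate 2 the latter was 113%, so no reduction of Sprr1a is read from them. Without MOG replicate 3 the shares of Ecel1 were 90.1% and 103%. The shares were not computed without the lens and myelin libraries together. In that setting GB20 vs. MOG gave log2 fold changes of −0.68 for Ecel1, −0.58 for Tnnt2 and −0.47 for Lad1. Ecel1 thus fell most in GB20 by that measure, so the order given above for GB20 depended on these libraries. GV16 vs. MOG gave −0.39 for Ecel1, −0.72 for Tnnt2 and −0.67 for Lad1.

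With edgeR's quasi-likelihood test and a Benjamini-Hochberg adjusted p under 0.05 over all 18299 genes, 0 of the 8 members were called in GB20 vs. MOG, where 0.24% of tested genes were. In GV16 vs. MOG 0 of 8 were called by edgeR against 0.164% of tested genes, and with both needled groups averaged (needled vs. MOG) 0 of 8 against 0.317%. At an unadjusted p under 0.05, Lad1 and Tnnt2 passed in each of the 3 comparisons, 2 of 8 members each time, against 8.0%, 5.3% and 7.67% of tested genes in GB20, GV16 and needled vs. MOG. DESeq2 on all 12 libraries and limma on log2(FPKM + 1) called 0 members in each. Tnnt2 came nearest to the threshold, with a log2 fold change of −0.62 in needled vs. MOG (SE 0.146, 95% CI −0.92 to −0.32) and an adjusted p of 0.0847 by edgeR, lower in 5 of 6 needled libraries than in every MOG library. Lad1 followed with −0.59 (SE 0.153, 95% CI −0.91 to −0.27) and an adjusted p of 0.148 by edgeR, lower in 6 of 6. Ecel1 was at −0.28 (95% CI −0.62 to 0.05, adjusted p 0.703 by edgeR) and Sprr1a at −0.41 (95% CI −1.50 to 0.67, adjusted p 0.888 by edgeR). Leaving out 1 library, Ecel1 ran from −0.47 to −0.05 in needled vs. MOG and from −0.55 to −0.14 in GB20 vs. MOG.

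By site, Tnnt2 differed from MOG by −0.52 (95% CI −0.87 to −0.16, adjusted p 0.408 by edgeR) in GB20 and by −0.72 (95% CI −1.08 to −0.36, adjusted p 0.161 by edgeR) in GV16. Lad1 differed by −0.49 (adjusted p 0.480 by edgeR) and by −0.69 (adjusted p 0.259 by edgeR) in the same order. For Ecel1 the values were −0.37 (adjusted p 0.638 by edgeR) in GB20 and −0.20 (adjusted p 0.998 by edgeR) in GV16, the latter turning to 0.03 without MOG replicate 3. Sprr1a also turned without MOG replicate 3, from −0.51 to 0.06 in GB20 vs. MOG, from −0.31 to 0.26 in GV16 vs. MOG and from −0.41 to 0.16 in needled vs. MOG. Without GV16 replicate 2, its value in GV16 vs. MOG was 0.19. The lower needled levels of Lad1 and Tnnt2 kept their sign whichever library was left out, but their size moved. Tnnt2 ran from −0.70 to −0.32 in GB20 vs. MOG, from −0.90 to −0.53 in GV16 vs. MOG and from −0.80 to −0.43 in needled vs. MOG. For Lad1 the ranges were −0.59 to −0.40, −0.84 to −0.53 and −0.66 to −0.51 in the same order.

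The calls of Lad1 and Tnnt2 depended on the processing. In needled vs. MOG both passed when no filter on low counts was used, and also when the MOG and needled libraries were fitted without SHAM by edgeR or by DESeq2. Over the 22 alternatives the adjusted p in needled vs. MOG ran from 0.00427 to 0.774 for Tnnt2, called in 5, and from 0.0173 to 0.697 for Lad1, called in 3. Of the libraries left out, MOG replicate 1 brought Tnnt2 to −0.80 with an adjusted p of 0.0210 by edgeR, and SHAM replicate 2 left it at −0.62 with an adjusted p of 0.0259 by edgeR. In GV16 vs. MOG Tnnt2 was called in 2 of 22, without the filter and without MOG replicate 1 (log2 fold change −0.90), and Lad1 in 1 of 22, without the filter. Neither was called by any of the 22 in GB20 vs. MOG. Without the 3 libraries with raised lens or myelin genes, needled vs. MOG gave −0.65 for Tnnt2, −0.57 for Lad1 and −0.53 for Ecel1, with 0 members called by edgeR and 3 at an unadjusted p under 0.05.

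Sox11, Gap43, Gadd45a and Gal lay nearer to 0 in needled vs. MOG, at −0.12, −0.07, 0.06 and −0.08. The 95% intervals ran from −0.50 to 0.27 for Sox11, from −0.27 to 0.13 for Gap43 and from −0.16 to 0.27 for Gadd45a, and for Gal, with few counts, from −1.20 to 1.04. No direction is read from these, because single libraries turned several of them. Without MOG replicate 1, Sox11 was at 0.01 in needled vs. MOG and 0.05 in GB20 vs. MOG, and without GV16 replicate 2 it was at 0.08 in GV16 vs. MOG. Gap43 was at 0.04 in GB20 vs. MOG without GB20 replicate 3, and Gadd45a at −0.02 in GV16 vs. MOG without GV16 replicate 2. Gal in needled vs. MOG turned to between 0.03 and 0.22 without MOG replicate 1 or 3, GB20 replicate 1 or 3, or GV16 replicate 2 or 3. In GB20 vs. MOG it turned to −0.39 without MOG replicate 2 and to −0.62 without GB20 replicate 2, and in GV16 vs. MOG to between 0.05 and 0.13 without MOG replicate 1 or 3 or GV16 replicate 2 or 3.

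**Figure D3:**
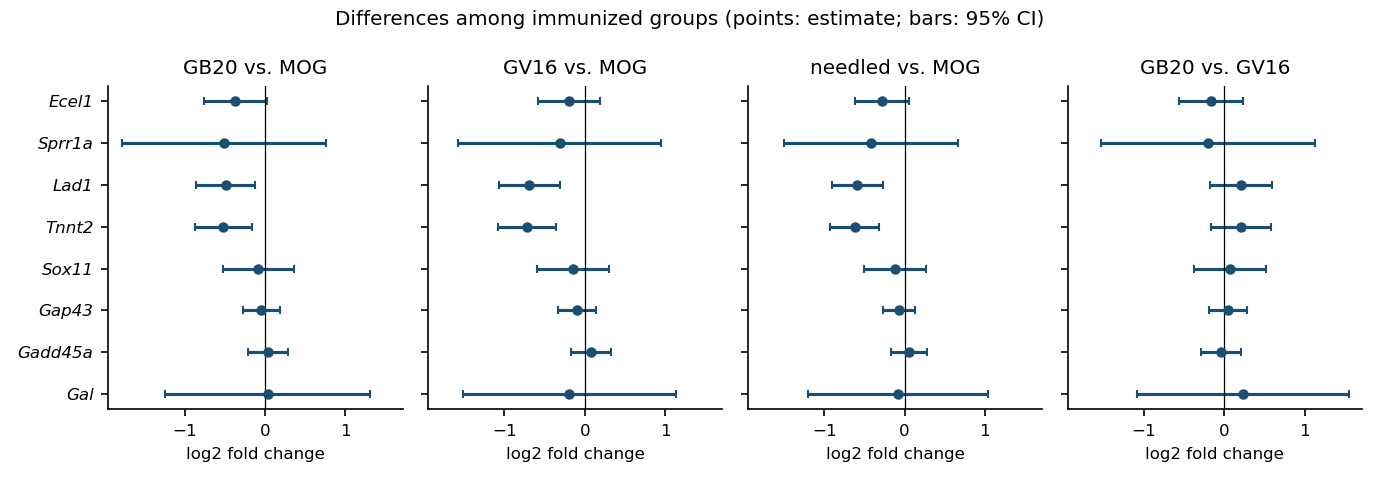
Log2 fold change (x axis) of the 8 genes in GB20 vs. MOG, GV16 vs. MOG, needled vs. MOG and GB20 vs. GV16, with bars for the 95% CI of edgeR's fit. In the 3 comparisons with MOG the intervals of Lad1 and Tnnt2 lie below 0, before adjustment for the number of genes, and in GB20 vs. GV16 all 8 intervals span 0.

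GB20 vs. GV16 asks whether the needled site matters, and it is the only comparison that shares no library with MOG or SHAM. The members were chosen on values of immunized retinas, to which these libraries also belong, but not on the difference between them. By edgeR 0 of 8 members were called, against 0.00546% of tested genes, with 0 of 8 at an unadjusted p under 0.05, against 2.93%, and 0 by DESeq2 or limma. The called share is 1 gene, Gpnmb (log2 fold change −1.23, adjusted p 0.00697 by edgeR), named after its value was seen, and without GB20 replicate 1, GB20 replicate 2 or GV16 replicate 2 the count was 0. It was 2 without SHAM replicate 1, MOG replicate 3 or GV16 replicate 1, and 4 without SHAM replicate 2.

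Among the members Ecel1 was at −0.17 (95% CI −0.57 to 0.23) in GB20 vs. GV16, Lad1 at 0.20 (95% CI −0.18 to 0.59) and Tnnt2 at 0.20 (95% CI −0.17 to 0.58). The intervals leave room for differences between sites as large as those between GB20 and MOG. Sprr1a was at −0.20 (95% CI −1.53 to 1.13), and at 0.03 without GB20 replicate 3 and 0.33 without GV16 replicate 3. The other members were at 0.07 (Sox11), 0.05 (Gap43), −0.04 (Gadd45a) and 0.23 (Gal). These turned to −0.16 for Sox11, 0.06 for Gadd45a and −0.07 for Gal without GV16 replicate 2. Without GV16 replicate 3 Gap43 was at −0.02 and Gal at −0.09, without GB20 replicate 1 Gap43 was at −0.02, and without GB20 replicate 2 Gal was at −0.42.

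Whether the members varied together was asked within the 9 immunized libraries, leaving out SHAM because the difference from it chose them. For Ecel1 and Tnnt2 Pearson's r of log2 CPM was 0.429 (exact permutation p 0.247, adjusted 0.755 over 7 relations) and Spearman's rho 0.25 (exact permutation p 0.521, adjusted 0.791). Without the 2 libraries farthest from the median of Ecel1, MOG replicate 3 and GB20 replicate 1, r was −0.389. For Ecel1 and Lad1 r was 0.216 (exact permutation p 0.585, adjusted 0.819), rho was 0.167 (exact permutation p 0.678, adjusted 0.791) and r without those libraries was −0.221. Both values thus turned negative without MOG replicate 3 and GB20 replicate 1 together, and the part of each library alone was not tested. Ecel1 and Sox11 had r 0.317 (exact permutation p 0.379, adjusted 0.755) and rho 0.733 (exact permutation p 0.0311, adjusted 0.218), which did not pass after adjustment, and r 0.510 without the same 2 libraries. The other 4 relations of Ecel1 had r between −0.00686 (Gap43) and 0.422 (Gal), with adjusted exact permutation p of at least 0.755 for r.

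Lad1 and Tnnt2 had r 0.900 and rho 0.9 over the same libraries. This pair was picked after the values and positions had been seen, so its correlation describes what was noticed and no test of it is given. Without GV16 replicate 2 and MOG replicate 3, the libraries farthest from the median of Lad1, r was 0.845. The group means contribute to it, since MOG was high and GV16 low for both genes, and for deviations from the group means r was 0.684. A relation of the 2 genes beyond this description was not established with 9 libraries.

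**Figure D4:**
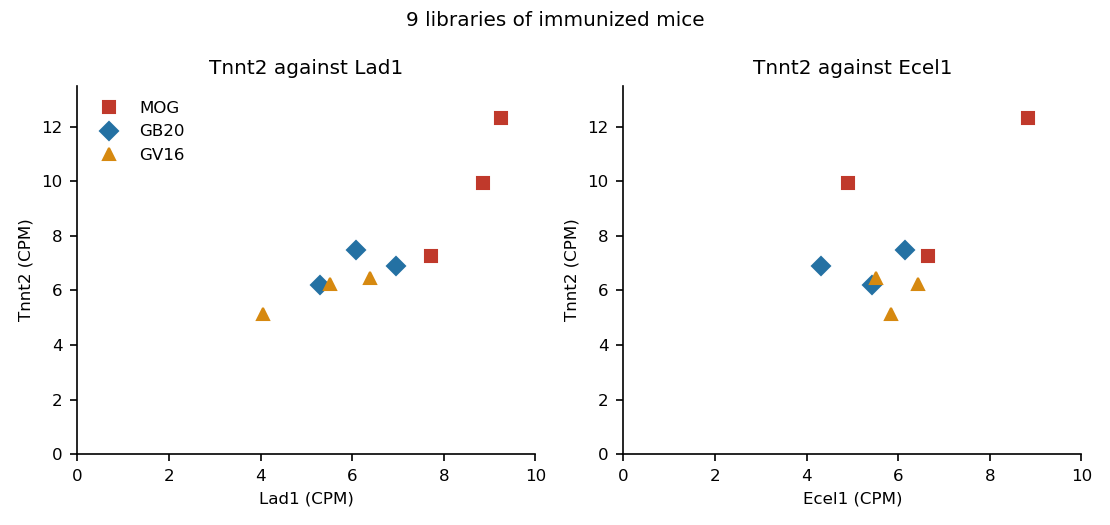
Level of Tnnt2 (y axis, CPM) against Lad1 (left) and Ecel1 (right, x axes in CPM) in the 9 immunized libraries, 1 point per library, marked by group. With Lad1 r was 0.900, for a pair picked after its values were seen, and with Ecel1 it was 0.429, and −0.389 without MOG replicate 3 and GB20 replicate 1.

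Genes with a profile like that of Ecel1 were ranked by Pearson's r of log2 CPM over all 12 libraries, among 16050 tested genes with a mean of at least 1 CPM. This is a description, since the SHAM libraries set most of the order. The 5 highest outside the members were Csf1r (r 0.939), Stat3 (0.924), Cp (0.922), Lrrc2 (0.919) and C4b (0.915). Their means in SHAM and MOG were 6.09 and 9.15 CPM for Csf1r, 66.5 and 109 CPM for Stat3, 141 and 175 CPM for Cp, 36.9 and 51.6 CPM for Lrrc2, and 6.88 and 22.9 CPM for C4b. Csf1r encodes the receptor of macrophages and microglia for colony stimulating factor, C4b a complement component and Cp ceruloplasmin. Among the members, Tnnt2 came 2nd of all genes (r 0.933) and Lad1 10th (r 0.906). Sox11 came 1503rd (r 0.483), Gadd45a 5131st (r 0.179) and Gap43 15061st (r −0.586). Sprr1a and Gal were below the limit of 1 CPM and not ranked.

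The injury response around the members was read from gene lists, in MOG vs. SHAM, where edgeR called 1.34% of all tested genes in either direction and the median log2 fold change was −0.00. At an unadjusted p under 0.05 it was 13.0% of tested genes, the share to hold beside the unadjusted counts of the lists. Of 18 transcription factors linked to axon injury, 17 could be matched and tested, their median was 0.10, and 1 was called higher and 0 lower, with 3 of 17 at an unadjusted p under 0.05. It was Stat3, the transcription factor downstream of cytokines, with 66.5 ± 7.03 CPM in SHAM against 109 ± 12.7 CPM in MOG (SD, n = 3), a log2 fold change of 0.71 (adjusted p 0.000224 by edgeR) with 3 of 3 MOG libraries above SHAM. Stat3 was called in all 22 alternatives. The most abundant others were Atf4 at −0.17 and Klf9 at 0.10. The largest fitted change of the list was that of Cebpd, at 1.07 (adjusted p 0.110 by edgeR), with 9.56 ± 2.71 CPM in SHAM against 20.1 ± 4.56 CPM in MOG (SD, n = 3) and 3 of 3 MOG libraries above SHAM. DESeq2 called it beside Stat3, edgeR did so with no filter on low counts and without GB20 replicate 3, and limma called Stat3 alone. Atf3 and Jun, which often mark axotomized neurons and are named after their values were seen, were at 0.24 (adjusted p 0.619 by edgeR) and 0.10 (adjusted p 0.615 by edgeR). Retinas were all taken at the same interval after immunization according to the methods, so earlier changes of these genes were not sampled.

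The DLK and JNK kinases carry the injury signal from axon to nucleus. Of 13 genes of this cascade 0 were called by edgeR, with 0 at an unadjusted p under 0.05 and 0 by DESeq2 or limma. Their median was −0.04, with Mapk8ip3 at −0.04 and Mapk9 at 0.10. Signalling through these kinases runs by phosphorylation, which RNA levels do not measure.

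Growth cone and axon growth proteins, the company in which Gap43 is usually named, went down where edgeR called them. Of 20 tested, 0 were called higher and 4 lower by edgeR, with 12 of 20 at an unadjusted p under 0.05 and a list median of −0.20. Of these 12, Tubb6 (0.37) was higher and the others were lower. Those that fell were Stmn2 (−0.53), Stmn3 (−0.50), Tubb3 (−0.48) and Stmn1 (−0.43), which are tubulin and regulators of microtubules. Tubb3 was called in all 22 alternatives. The calls of Stmn1 and Stmn2 were lost without SHAM replicate 1 (−0.42 and −0.51), and those of Stmn1, Stmn2 and Stmn3 without MOG replicate 2 (−0.37, −0.50 and −0.46) or MOG replicate 3 (−0.41, −0.46 and −0.47). Without the lens and myelin libraries Stmn1 (−0.28), Stmn2 (−0.44) and Stmn3 (−0.36) were not called either, and Tubb3 (−0.45) was. Dpysl3 and Tuba1a, the most abundant others, were at 0.03 and −0.24. DESeq2 called 6 lower and limma 1.

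Neuropeptides and trophic factors, the class of Gal, had 12 of 16 genes tested and a median of −0.12. Fgf2, a growth factor that retinal cells raise under stress, was called higher, and 0 were called lower by edgeR, with 3 of 12 at an unadjusted p under 0.05. Its level was 30.5, 29.9 and 28.9 CPM in SHAM and 59.9, 59.4 and 76.6 CPM in MOG, without overlap. Fgf2 rose by a log2 fold change of 1.13 (adjusted p 9.51e-07 by edgeR) and was called in all 22 alternatives. Igf1 and Tac1, the most abundant others, were at −0.10 and −0.01.

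Of the 15 stress genes of the GADD45 and p53 group, the company of Gadd45a, 1 was called higher and 0 lower by edgeR, with 6 of 15 at an unadjusted p under 0.05 and a median of 0.02. It was Gadd45b, which averaged 7.33 ± 1.62 CPM in SHAM against 12.2 ± 1.46 CPM in MOG (SD, n = 3), with a log2 fold change of 0.74 (adjusted p 0.0287 by edgeR). The call was lost without SHAM replicate 1 (0.78), SHAM replicate 3 (0.57), MOG replicate 2 (0.72) or MOG replicate 3 (0.66), and limma called 0. Ccng1 and Sesn1, targets of p53 and the most abundant of the list, were at 0.02 and 0.04. The 5 tested genes of the M13 endopeptidase family besides Ecel1 had a median of −0.11, with Ece1 at −0.05 and Ece2 at −0.11. EdgeR called 0 of them, 1 of 5 had an unadjusted p under 0.05, against 13.0% of all tested genes, and DESeq2 and limma called 0.

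Retinal ganglion cell markers fell in MOG vs. SHAM: of 14 tested, edgeR called 12 lower and 0 higher, the same number having an unadjusted p under 0.05, with a median of −0.90. DESeq2 called the same number and limma 6. The largest decreases were those of Isl2 (−1.14), Nefm (−1.03), Pou4f1 (−1.03), Nefl (−0.94), Sncg (−0.93) and Nrn1 (−0.92). Nefm lost its call without SHAM replicate 1 (−0.95), SHAM replicate 2 (−1.06), MOG replicate 2 (−0.95) or MOG replicate 3 (−0.97), and the other 5 kept theirs whichever single library was left out. Slc17a6 and Pou4f3 also lost their calls without SHAM replicate 1 (−0.50 and −0.80), SHAM replicate 2 (−0.61 and −0.86), MOG replicate 2 (−0.54 and −0.78) or MOG replicate 3 (−0.52 and −0.80). For Rbpms this happened when SHAM replicate 1 (−0.54) or either of MOG replicates 2 (−0.64) and 3 (−0.58) was gone. Without the lens and myelin libraries 5 of the 12 calls remained, those of Nefl, Nefh, Sncg, Pou4f2 and Isl2. The 7 that were lost had negative values still: Thy1 (−0.50), Nefm (−0.98), Slc17a6 (−0.58), Rbpms (−0.70), Nrn1 (−0.88), Pou4f1 (−0.99) and Pou4f3 (−0.75). Jam2 (0.04) and Isl1 (−0.06), the most abundant that were not called, are also made by other retinal cells. Per library the 14 markers summed to 1150 to 1273 CPM in SHAM, 745 to 856 CPM in MOG, 849 to 873 CPM in GB20 and 743 to 953 CPM in GV16, with Nefl the most abundant at a mean of 190 CPM. In bulk retina, fewer ganglion cells and less RNA per cell cannot be told apart, and this holds for Gap43 and the growth cone genes too. The part of this decrease in the levels of the members was not tested. Ecel1, Sprr1a, Lad1 and Tnnt2 were higher while these markers were lower.

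**Figure D5:**
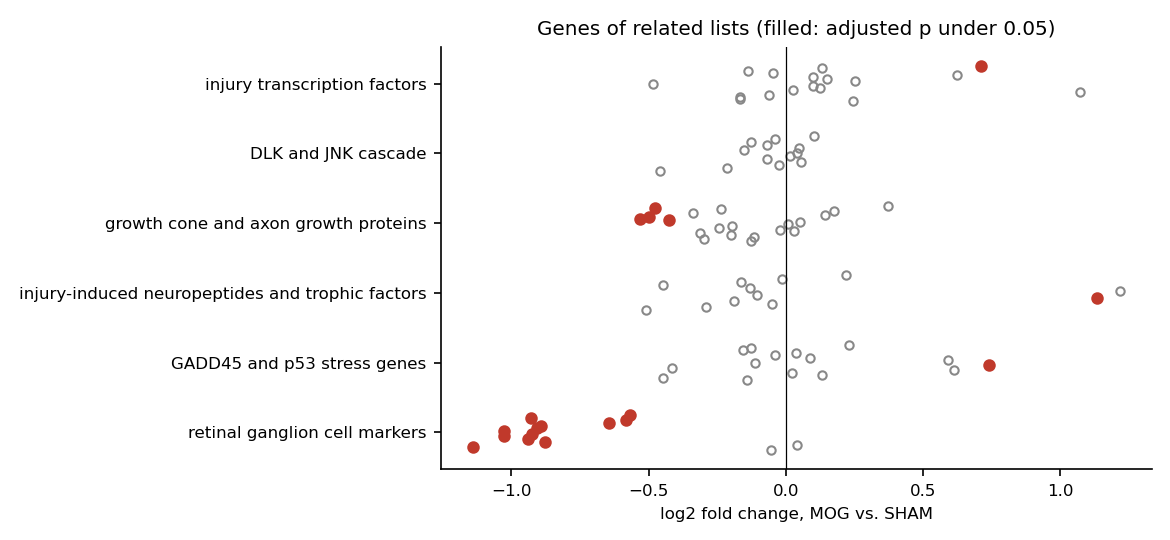
Log2 fold change in MOG vs. SHAM (x axis) of every tested gene of 6 lists, 1 point per gene, filled where edgeR's adjusted p was under 0.05. Filled points above 0 are Stat3, Fgf2 and Gadd45b, and 12 of 14 retinal ganglion cell markers and 4 growth cone genes are filled below 0.

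Other cell types were read from their markers in the same comparison. Of 8 Müller glia genes 1 was called higher and 0 lower by edgeR, Aqp4 with a log2 fold change of 0.46, called in all 22 alternatives, and 3 of 8 had an unadjusted p under 0.05. The list's median was −0.01 with 4 of 8 positive, and its sum was 4059 to 4633 CPM over all libraries. Glul, the most abundant of it, was lower in 3 of 3 MOG libraries than in SHAM (1743 ± 126 against 2081 ± 81.7 CPM, SD, n = 3), with a log2 fold change of −0.26 that DESeq2 called, edgeR called with no filter on low counts, and limma did not call. Of 12 immune cell genes 5 were tested, with a median of 0.92 and 0 called by edgeR, 1 at an unadjusted p under 0.05 and 0 by DESeq2 or limma. The list summed to between 3.03 CPM in SHAM replicate 1 and 15.4 CPM in MOG replicate 2, the library with raised myelin genes, and to at least 5.42 CPM in each immunized library, with Lyz2 the most abundant gene. The immune sum was higher in every immunized library than in SHAM, as the Ecel1 to Tnnt2 genes were, and its part in their levels was not tested. Of the surface epithelium list 3 were tested and 0 called by edgeR, with 1 at an unadjusted p under 0.05 and 0 by DESeq2 or limma. The 4 tested myelin genes and 2 tested lens genes had 0 called by edgeR, 0 at an unadjusted p under 0.05 and 0 by DESeq2 or limma. Of 8 rod genes 0 were called by edgeR, 1 had an unadjusted p under 0.05, and DESeq2 and limma called 0.

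In the comparisons with MOG, few genes of these lists passed. Fgf2 fell in needled vs. MOG by a log2 fold change of −0.44 (adjusted p 0.0160 by edgeR) and in GV16 vs. MOG by −0.52 (adjusted p 0.0235 by edgeR). At 56.0, 49.2 and 47.9 CPM in GB20 and 44.1, 41.5 and 50.8 CPM in GV16, it was below every MOG library in 6 of 6 needled libraries and above every SHAM library in 6 of 6, the pattern of Lad1. In needled vs. MOG the call did not hold when MOG replicate 3 (−0.31) or GV16 replicate 2 (−0.41) was left out. In GV16 vs. MOG it did not hold when MOG replicate 3 was left out (−0.39), nor with GV16 replicate 1 (−0.50) or 2 (−0.46) gone. DESeq2 called Fgf2 in both comparisons, and limma in neither.

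Vip, a neuropeptide of amacrine cells, fell in needled vs. MOG by −0.47 (adjusted p 0.0456 by edgeR), a call that was lost without any 1 of 8 libraries. These were MOG replicates 1 (−0.45), 2 (−0.43) and 3 (−0.52), GB20 replicates 2 (−0.43) and 3 (−0.46), and GV16 replicates 1 (−0.48), 2 (−0.49) and 3 (−0.42). The call was also lost without the lens and myelin libraries (−0.41) and with limma, while DESeq2 kept it. Aqp4 fell by −0.35 in needled vs. MOG (adjusted p 0.00645 by edgeR), and without MOG replicate 1 (−0.30) or MOG replicate 2 (−0.35) it was not called. It was also called in GB20 vs. MOG (−0.35, adjusted p 0.0293 by edgeR) and in GV16 vs. MOG (−0.34, adjusted p 0.0472 by edgeR). The call in GB20 vs. MOG was lost when any MOG or GB20 library was left out, with values from −0.40 to −0.31, and without the lens and myelin libraries (−0.34). In GV16 vs. MOG it was lost without SHAM replicate 1 or any MOG, GB20 or GV16 library, with values from −0.39 to −0.30. DESeq2 called Aqp4 in all 3 comparisons with MOG, and limma in none. In needled vs. MOG DESeq2 also called Glul, at 0.21 by edgeR, which edgeR and limma did not call.

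Retinal ganglion cell markers in needled vs. MOG had a median of 0.10 with 14 of 14 positive, but edgeR called 0, 4 had an unadjusted p under 0.05, and DESeq2 and limma called 0. By site, 13 of 14 were positive in GB20 vs. MOG with 5 at an unadjusted p under 0.05, and 11 of 14 in GV16 vs. MOG with 0, and edgeR, DESeq2 and limma called 0 in both. The median of all tested genes in needled vs. MOG was −0.000672, and the share of positive values among them was not counted. MOG libraries, in which these markers were low, enter each of these comparisons, so no rise with needling is read from the signs. For the transcription factors, the kinase cascade and the stress genes, edgeR called 0 in each comparison with MOG, with 1 to 2, 0 and 1 to 2 at an unadjusted p under 0.05 and 0 by DESeq2 or limma. Of the growth cone genes edgeR called 0 in these comparisons, with 5, 2 and 2 at an unadjusted p under 0.05 in GB20, GV16 and needled vs. MOG, and DESeq2 called 1, Dpysl3, in the last 2. The M13 family besides Ecel1 had 3, 0 and 1 of 5 tested genes at an unadjusted p under 0.05 in the same order. The shares of all tested genes were 8.0%, 5.3% and 7.67%, and edgeR, DESeq2 and limma called 0 of the family. In GB20 vs. GV16 edgeR called 0 genes of any list, and so did DESeq2 and limma, with at most 1 gene of a list at an unadjusted p under 0.05.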

How the data were processed

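The deposited counts are whole numbers per gene, which the authors obtained with HISAT2 2.0.5 on mm10 and FeatureCounts and left unscaled. The deposited FPKM values follow from these counts, as the count over gene length times 1 constant per library. Names and positions came from GENCODE vM21, and 0 columns were left unmapped. Ddit3 matched 2 identifiers and was left out.

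Tests on the deposited counts ran in edgeR 4.0.16 (R 4.3.3): filterByExpr by group, TMM, 1 mean per group over all 12 libraries (8 residual degrees of freedom), robust quasi-likelihood test, 2-sided, Benjamini-Hochberg threshold 0.05. DESeq2 1.42.0 and limma 3.58.1 were run beside it, and the tests were tried on simulated data. Relations used exact permutation of pairings, 2-sided (Python 3.11.15, scipy 1.17.1). Figures used matplotlib 3.10.9. No 2 libraries of a group were duplicates (chi-square per gene 3.03 to 16.5).

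Named were all 8 members, of each list every called gene (up to 6 by size of change) and up to 2 most abundant others, and the 5 genes most like Ecel1. Members and lists were chosen with earlier results of these data known.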

Additional observations from a re-analysis of the deposited data

How the results depend on the processing

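Results were recomputed under 22 alternatives, 21 planned, of which 12 left out 1 library, and 1 chosen after seeing the data (without SHAM replicate 2, MOG replicate 2 and GB20 replicate 2). Of 459 values of members relative to SHAM, 428 moved by less than the spread between replicates and 31 by more. Of 686 values of members in the other comparisons 641 kept direction and side of the threshold, 11 passed it newly and 34 changed sign. Of 572 values of called list genes 450 kept their call, 122 lost it and 0 changed sign. Depth limits Sprr1a (0 to 16 counts a library) and Gal (2 to 13) most. The cause of the shifts below was not tested, except that fewer libraries or other numbers of genes enter by construction.

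Genes called in MOG vs. SHAM (245) numbered 539 with no filter, 404 with replicate number as a block, 71, 73 and 57 with limma on log2(FPKM + 1), log2(FPKM + 0.1) and log2(FPKM + 1) without a filter, 101 without the lens and myelin libraries, and 91 to 427 leaving out 1 library. In the same order of limma settings, GB20 vs. MOG (44) gave 140 with no filter, 118 and 119 with edgeR and DESeq2 on the compared groups only, 73 with the block, 8, 10 and 12 with limma, and 13 to 83 leaving out 1 library. GV16 vs. MOG (30) gave 73, 48, 57, 47, then 6, 7 and 9, and 10 to 38. Needled vs. MOG (58) gave 159 with no filter, 89 with DESeq2 on all 12 libraries, 103 and 129 on the compared groups only, 12, 16 and 20 with limma, and 23 to 97 leaving out 1 library. GB20 vs. GV16 (1) gave 8 with no filter, 5 with DESeq2 on all 12 libraries, 3 and 4 on the compared groups only, 2, 2 and 2 with limma, 3 without the lens and myelin libraries, and 0 to 4 leaving out 1 library.

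The libraries that moved these counts by over 1.5 times were SHAM replicates 1 (120) and 3 (427) and MOG replicates 2 (106) and 3 (91) in MOG vs. SHAM. In GB20 vs. MOG they were SHAM replicate 2 (83), MOG replicates 1 (25), 2 (13) and 3 (17), and GB20 replicates 1 (18), 2 (22) and 3 (21). In GV16 vs. MOG they were SHAM replicate 1 (19), MOG replicates 1 (14), 2 (13) and 3 (14), and GV16 replicates 1 (12), 2 (10) and 3 (18). In needled vs. MOG they were SHAM replicate 2 (97), MOG replicates 1 (27), 2 (25) and 3 (23) and GV16 replicate 2 (26).

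Members called (0) became 2 in GV16 vs. MOG with no filter, and 2 in needled vs. MOG with no filter, edgeR on the compared groups only or DESeq2 on the compared groups only, and 0 to 1 in both leaving out 1 library. Pearson's r of Ecel1 and Lad1 was −0.124 for deviations from group means, that of Ecel1 and Gap43 was 0.0262 on log2(FPKM + 1), and that of Lad1 and Tnnt2 was 0.684 for deviations.

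Log2 fold changes that changed sign leaving out 1 library ranged, for GB20 vs. MOG, from −1.04 to 0.0598 (Sprr1a), −0.21 to 0.0472 (Sox11), −0.11 to 0.0396 (Gap43) and −0.62 to 0.33 (Gal). For GV16 vs. MOG the ranges were −0.38 to 0.0306 (Ecel1), −0.85 to 0.26 (Sprr1a), −0.35 to 0.0787 (Sox11), −0.0202 to 0.16 (Gadd45a) and −1.16 to 0.13 (Gal). For needled vs. MOG they were −0.68 to 0.16 (Sprr1a), −0.24 to 0.0123 (Sox11) and −0.56 to 0.22 (Gal). For GB20 vs. GV16 they were −0.73 to 0.33 (Sprr1a), −0.16 to 0.26 (Sox11), −0.0238 to 0.17 (Gap43), −0.12 to 0.0567 (Gadd45a) and −0.42 to 1.20 (Gal). Sprr1a in GB20 vs. GV16 was 0.0613 with limma on log2(FPKM + 0.1). Relative to SHAM the ranges were −0.14 to 0.18, −0.10 to 0.21 and −0.06 to 0.25 for Gadd45a in MOG, GB20 and GV16, and −0.46 to 0.26 and −0.79 to 0.15 for Gal in MOG and GB20. Without the lens and myelin libraries Gal was −1.05 in GB20 vs. MOG and −0.43 in GB20 vs. GV16.

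Whether replicate numbers pair libraries was not settled. Over 18 pairs of libraries with the same number in 2 groups, the correlation of deviations from the group means across genes had a median of 0.0320 and ran from −0.0966 to 0.286, above 0.1 in 3. Over 36 pairs with different numbers the median was −0.0152 and the range −0.201 to 0.115, above 0.1 in 1. The 3 pairs of SHAM and GB20 were at 0.0880, 0.286 and 0.157, and both libraries with raised lens genes have number 2. The experiment was repeated 3 times, and the methods call a repeat a replicate. Whether the numbers of the libraries mark the repeats is not stated outright, and the fit with the number as a block is given above.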

Other observations

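Penk, which encodes the enkephalin precursor and was named after its values were seen, differed more between libraries of a group than between groups. It was at 23.2 CPM in GB20 replicate 2 and 14.2 CPM in GV16 replicate 1, and between 2.54 and 9.12 CPM in the other 10 libraries.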
